A study of Mus musculus with 16 samples.

Results

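The 33 genes described here encode the carriers and enzymes that take glucose through glycolysis, the pentose phosphate pathway and glycogen turnover, together with the transcription factor Hif1a. They were listed by gene name and not by a cut on a measured value, but with earlier results of these data known. The genes were followed in RNA sequencing of neutrophils sorted from mouse liver. The 33 names matched 34 of the 54532 gene identifiers of the count table, because Aldoa has 2 identifiers. The second Aldoa identifier reached 10 counts in 0 of the 16 libraries and was not used. A further 2 genes, the muscle phosphofructokinase Pfkm and the ribose-5-phosphate isomerase Rpia, reached 10 counts in only 2 and 4 libraries. The 31 genes with at least 10 counts in at least 8 libraries were analysed.

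The neutrophils came from 8 mixed bone marrow chimeras, numbered 2 to 9, and each mouse gave 1 WT and 1 Ifngr1_KO library. In such an animal the blood cells regrow after irradiation from the marrow of 2 donors, so that both genotypes share a host. Here wild-type hosts were irradiated with about 1000 cGy and given equal parts (50% each) of WT CD45.1+ marrow and of Ifngr1-/- CD45.2+ marrow, which lacks the ligand-binding chain of the interferon gamma receptor. After 8 weeks they received MC38 colon carcinoma cells in the flank, and 1 week later a CD40 agonist, an antibody that activates antigen-presenting cells. Both genotypes were sorted from the same liver 2 days after that treatment, so every library comes from a tumour-bearing, CD40-treated animal. No untreated group was analysed here. In every mouse the genotype came with its own marrow donor, CD45 type and gate in the sort, so that these and the loss of Ifngr1 cannot be told apart. The strain is labelled C57BL/6, and the sources used here give neither age, sex nor CD45 type of the hosts, so neutrophils of host origin could fall in either gate. The p-values measure the spread over these 8 animals.

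Glycolysis splits glucose into pyruvate or lactate and yields ATP without oxygen. Neutrophils have few mitochondria and are known to rely on it. Glucose enters through carriers of the Slc2a family and is trapped as glucose-6-phosphate by a hexokinase, and most of it then runs through phosphofructokinase, the main control point, to pyruvate kinase and lactate dehydrogenase. A side branch, the pentose phosphate pathway, oxidises glucose-6-phosphate through G6pdx, Pgls and Pgd and yields NADPH, the fuel of the NADPH oxidase with which neutrophils make reactive oxygen. Glycogen, which neutrophils store in the cytoplasm, is built by Ugp2, Gys1 and Gbe1 from a glycogenin primer and is broken down by Pygl. Hif1a raises transcription of many glycolytic genes in low oxygen and in activated myeloid cells.

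Estimated counts per library came to 12.5 to 21.7 M. Ifngr1 itself was counted at 305 ± 46.6 CPM (counts scaled per 1e6 by TMM; mean ± SD, n = 8) in WT and 83.9 ± 29.5 CPM in Ifngr1_KO libraries, a log2 fold change of -1.94 ± 0.20 (SE; edgeR adjusted p = 2.50e-04). Its values ran from 228 to 358 CPM in WT and from 38.8 to 119 CPM in Ifngr1_KO libraries, without overlap, and the counts cover the whole gene and not the deleted part alone. All 10 neutrophil markers were above the expression filter, and their summed level was 33399 to 56273 CPM in WT and 28335 to 83868 CPM in Ifngr1_KO libraries. The largest parts were S100a8 and S100a9. The highest sum was that of the Ifngr1_KO library of mouse 7, with S100a8 at 44952 CPM. Csf3r was at 1311 CPM there, against 3607 to 5320 CPM in the other Ifngr1_KO libraries. The median log2 fold change was -0.32 over the 10 neutrophil markers, -0.46 over 7 tested precursor markers and -0.20 over the 31 genes. The precursor list did not fall as a whole. In it Elane, at a low level, ran from 0 to 0.844 CPM in WT and from 0.927 to 3.13 CPM in Ifngr1_KO libraries. Prtn3 ran from 0 to 3.37 CPM in WT and from 2.32 to 13.0 CPM in Ifngr1_KO libraries. Of 73 marker genes in 10 lists, 53 were tested, 5 passed as lower in Ifngr1_KO cells (Ngp, Ltf, Adgre1, Ly6c2 and Ighm) and 0 as higher. The 5 B cell markers summed to 152 to 278 CPM in WT and 58.1 to 81.2 CPM in Ifngr1_KO libraries, and most of that sum was Ighm (198 ± 54.5 and 57.6 ± 10.3 CPM), with Cd79a at 5.24 ± 1.82 and 4.78 ± 1.56 CPM. The 5 monocyte markers summed to 1032 to 1677 and 529 to 1134 CPM, nearly all of it Ly6c2 (1212 ± 210 and 741 ± 194 CPM), with Cx3cr1 at 11.9 ± 4.29 and 13.2 ± 5.52 CPM. The 10 Kupffer cell and macrophage markers summed to 1242 to 1892 CPM in WT and 380.1 to 1762 CPM in Ifngr1_KO libraries with Vsig4 at 0. Nearly all of that sum was Csf1r, at 1128 to 1738 and 331 to 1711 CPM, the lowest in mouse 7. Adgre1 was at 76.5 ± 25.8 and 36.0 ± 14.5 CPM. Clec4f was at 0.505 CPM or less and Timd4 at 1.20 CPM or less in every library. Of the hepatocyte markers, Apoa1 was at 112 ± 74.4 and 120 ± 95.4 CPM, and the liver glycogen synthase Gys2 was at 0 in all libraries. The part of these cell types in the values below was not tested. In bulk RNA, fewer cells of a type and less RNA per cell cannot be told apart.

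1 library stood apart from the rest. The Ifngr1_KO library of mouse 7 held the lowest of all 16 values for 19 of the 31 genes, against 0 to 4 genes in each other library. It also had the highest share of mitochondrial counts, 2.50%, where the WT libraries ranged from 0.294% to 1.19% (median 0.569%) and the Ifngr1_KO libraries from 0.475% up, with a median of 1.40%. In mouse 7, 13 of the 31 genes (41.9%) were more than 2-fold lower in the Ifngr1_KO library than in its WT partner, beside 27.8% of all genes tested. In the same mouse 3 of the 31 genes were more than 2-fold higher, beside 26.4% of all genes tested. In each of the other 7 mice 0 to 3 of the 31 genes (0% to 9.68%) were more than 2-fold lower, beside 9.36% to 14.9% of all genes. The low values in mouse 7 went with transcript length. The 8 genes whose principal transcript is under 2000 bases had a median log2 difference of -0.11 in that mouse and the 23 longer ones of -1.15, and over the genes tested that have a principal transcript length the medians were 0.41 (2674 genes) and -0.41 (6069 genes). Over the other mice the medians of the shorter and longer members were 0.06 and -0.14, beside 0.04 and 0 for the genes tested. Beside the values for all mice, those without mouse 7 are given for the genes that it moved by more than 1.5 times and for those whose call it changed. Among the cell markers, Ly6g and Camp also passed as lower without mouse 7.

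The promoters of 4 genes are printed so that the letters behind the motif counts can be seen. The windows are the 250 bases before the start of the RefSeq transcript (assembly GRCm38.p6), printed 5′ to 3′ on the gene's own strand. Capitals mark each match to ACGTG or GCGTG on either strand (CACGT and CACGC are their reverse complements), the core letters of hypoxia response elements. Hk3 and G6pdx are shown because their groups did not overlap, Ldha because it is a textbook hypoxia target, and Gyg because it was the called gene of the wider pathway. They lie at chr13:55021386-55021635 (Hk3, minus strand), chrX:74428881-74429130 (G6pdx, minus strand), chr7:46845554-46845803 (Ldha, plus strand) and chr3:20155117-20155366 (Gyg, minus strand). The GENCODE gene spans used for positions can start further upstream than the RefSeq transcripts. By those spans the G6pdx and Ldha windows lie inside the gene, and the Gyg window does so in part.
Hk3: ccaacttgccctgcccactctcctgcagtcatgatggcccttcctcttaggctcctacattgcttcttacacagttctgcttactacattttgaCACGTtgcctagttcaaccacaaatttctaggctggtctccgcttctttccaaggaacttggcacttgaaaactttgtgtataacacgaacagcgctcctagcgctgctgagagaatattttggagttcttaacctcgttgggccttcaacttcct
G6pdx: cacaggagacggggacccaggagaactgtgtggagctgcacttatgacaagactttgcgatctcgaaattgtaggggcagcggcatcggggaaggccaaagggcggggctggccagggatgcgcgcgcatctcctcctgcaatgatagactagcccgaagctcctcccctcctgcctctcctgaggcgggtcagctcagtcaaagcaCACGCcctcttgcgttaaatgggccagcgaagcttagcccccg
Ldha: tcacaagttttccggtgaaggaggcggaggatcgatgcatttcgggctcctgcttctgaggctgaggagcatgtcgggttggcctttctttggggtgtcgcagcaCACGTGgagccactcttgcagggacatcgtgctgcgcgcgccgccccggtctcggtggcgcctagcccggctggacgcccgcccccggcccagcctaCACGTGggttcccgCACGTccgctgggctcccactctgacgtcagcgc
Gyg: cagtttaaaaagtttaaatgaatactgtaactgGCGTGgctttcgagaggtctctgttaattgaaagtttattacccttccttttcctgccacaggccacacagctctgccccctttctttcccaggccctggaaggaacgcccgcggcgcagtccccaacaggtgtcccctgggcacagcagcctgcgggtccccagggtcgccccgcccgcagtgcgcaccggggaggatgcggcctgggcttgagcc
The first of 2 Ldha windows in the table is shown, and its CACGTG runs count on both strands, which gives 5 matches. At least 1 of the 2 core motifs was found in 25 of the 30 analysed genes that matched the table, where 41.5% of all 27025 genes in it had a match. For ACGTG alone it was 13 of 30 genes beside 18.5% of all genes, and for GCGTG 18 of 30 beside 30.9%. A gene counted when any of its windows held the motif, and some members have several windows. Both cores hold the letters CG, and the genes set beside them were matched neither for number of windows nor for CG content. The palindrome TTCNNNGAA, the GAS element through which interferon gamma signals, was found in 0 of the 30 analysed genes and in 8.13% of all genes. Among the members it was in the window of Pfkm, which was hardly counted. A pair of GAAA runs 2 bases apart, the core of the interferon-stimulated response element, was found in the Rpe window alone, beside 3.46% of all genes. These are matches of letters in a short window and say nothing of whether a factor binds there or elsewhere. Slc2a3 was not in the table.

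In WT neutrophils the 31 genes together took 2.79 ± 0.151% (SD, n = 8) of all counts, and in Ifngr1_KO neutrophils 2.71 ± 0.434%, the lowest being 1.76%. Per kilobase of the principal transcript, the highest mean level in WT was that of Gapdh (2916 CPM per kb), followed by Aldoa (1975), Taldo1 (1806), Pkm (1653), Eno1 (1272) and Slc2a6 (1083). The lowest analysed were Pgls (2.38 CPM per kb), Gbe1 (2.67) and Hk2 (3.35). With the median length of all protein-coding transcripts of a gene, Pkm (5545 CPM per kb) stood above Gapdh (3842), Aldoa (3562) and Eno1 (3335), so the order among the leading genes depends on the length used. The plot of levels shows the groups largely overlaid.

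**Figure D1:**
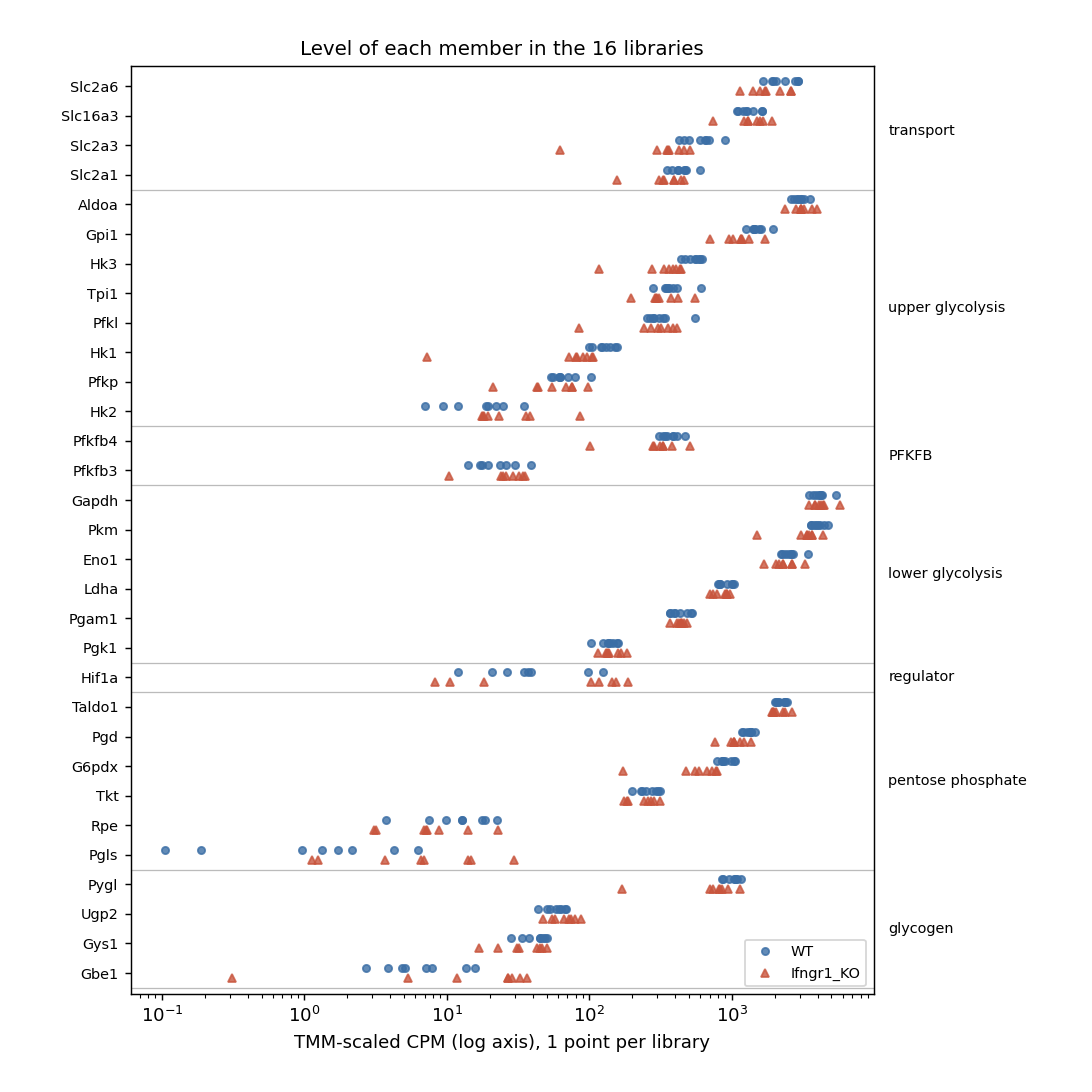
TMM-scaled CPM (log axis) of the 31 analysed genes, ordered by pathway step, with 1 point for each of 8 WT (circles) and 8 Ifngr1_KO (triangles) libraries. Levels run from a mean of 2.12 CPM (Pgls) to one of 4141 CPM (Gapdh) in WT, and the groups overlap for all genes but Hk3 and G6pdx.

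Among isozymes, the levels were uneven. Of the hexokinases, Hk3, the form typical of myeloid cells, made up 82.1% of the WT hexokinase level per length of the principal transcript, Hk1 16.2% and Hk2 1.67%. Over the union of all exons Hk3 made up 89.0%, but with the median transcript length Hk1 came first at 53.6% and Hk3 at 44.8%. Many annotated Hk1 transcripts are short, and the order of Hk1 and Hk3 is therefore not fixed by these data. Among phosphofructokinases the liver form Pfkl led under each of the 3 lengths, at 78.2%, 90.1% and 83.7% for the median, union and principal lengths. Pfkfb4 likewise led Pfkfb3 under each, at 91.0%, 96.1% and 95.5%. Slc2a6, a carrier of lysosomal membranes, was the largest of the 3 Slc2a carriers at 39.8%, 77.0% and 78.5%, but by the median length it did not differ from Slc2a3 (38.4%) beyond its SD of 6.47 percentage points.

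The comparison of Ifngr1_KO with WT asks whether neutrophils that cannot sense interferon gamma directly differ in these genes from neutrophils in the same liver that can. By edgeR's quasi-likelihood test with mouse as a block, 276 of 9851 genes (2.80%) were called at an adjusted p under 0.05, of which 229 were lower and 47 higher in Ifngr1_KO cells. Of the 31 genes, 0 were called. Without adjustment, 6 had a p under 0.05 and a lower level (Slc2a3, Slc2a6, Hk3, Gpi1, G6pdx and Pgd; 19.4%), beside 8.57% of all genes, and 1 a higher level (Pgls; 3.23%), beside 7.69%. Lower in Ifngr1_KO than in WT in 8 of 8 mice were 5 genes (Slc2a3, Hk3, Gpi1, G6pdx and Pgd; 16.1%), beside 4.93% of all genes, and higher in 8 of 8 was Pgls alone, beside 2.76%. The groups did not overlap, with all Ifngr1_KO values below all WT values, for Hk3 and G6pdx (6.45%), beside 1.48% of all genes. These shares set the 31 genes beside genes of unlike level. In either direction, 7 of the 31 genes and 1602 of all 9851 had an unadjusted edgeR p under 0.05. Among genes with a mean of at least 10 CPM it was 8 of 30 beside 1178 of 4648. The shares by mice and by overlap were not taken at like level.

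The median log2 fold change of the 31 genes was -0.20 (20 negative, 11 positive, range -0.88 to 2.34), where the median of all genes tested was 0.05. It was -0.36 over the 4 carriers, -0.25 over 8 genes of upper glycolysis, -0.06 over the 2 PFKFB genes, -0.03 over 6 of lower glycolysis, -0.23 over 6 of the pentose phosphate pathway and -0.04 over 4 of glycogen turnover. Mouse 7 moved this median the most. Its own median difference was -0.78, where the medians of the other 7 mice ran from -0.20 to 0.02, and without it the fitted median was -0.09 beside 0.05 for all genes. Without mouse 6 it was -0.13 beside 0.04. When the mitochondrial share was a covariate the median was -0.00 beside 0.02, with 16 negative and 15 positive. Scaling by library totals moved the median of all genes from 0.05 to 0.16 and that of the 31 genes to -0.09, which left the distance between them at -0.24 against -0.25. Among genes with a mean of at least 10 CPM the distance was smaller, -0.15. There the median was -0.12 over 30 of the 31 genes beside 0.03 over 4648 genes.

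**Figure D2:**
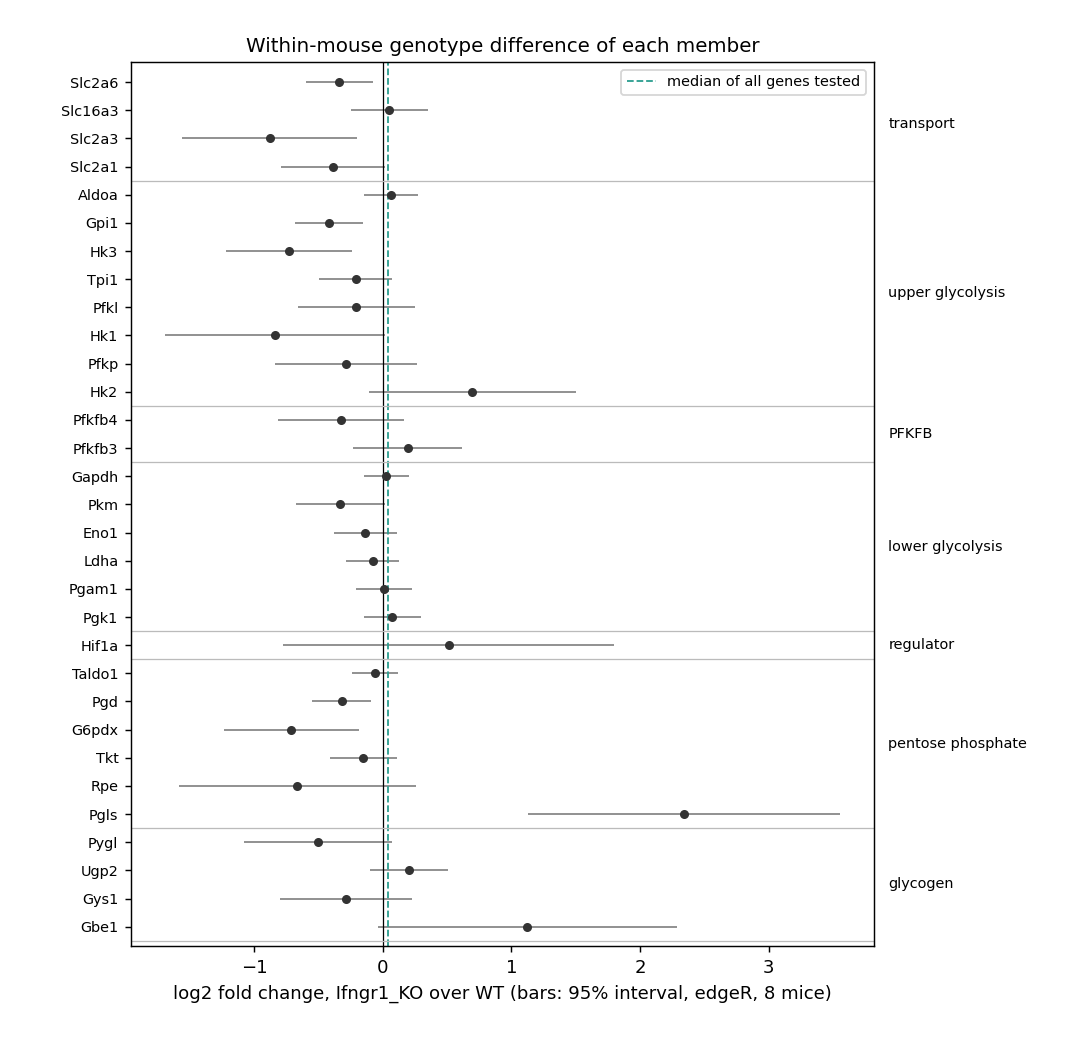
Fitted log2 fold change (Ifngr1_KO over WT) of the 31 analysed genes by pathway step, with 95% intervals, and a dashed line at the median of all genes tested (0.05). The intervals of Slc2a3, Slc2a6, Hk3, Gpi1, G6pdx and Pgd lie below 0 and that of Pgls above 0, while the intervals of lower glycolysis are narrow and cross 0.

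Calls among the 31 genes depended on the test and on mouse 7. DESeq2 with the same block called G6pdx, Gpi1, Hk3 and Slc2a3 lower, beside 5.81% of all genes, and Pgls higher, beside 4.95%. Limma-voom with a weight for each library called the same 4 genes lower, beside 4.31%, and Gbe1 higher, beside 1.75%. When both libraries of mouse 7 were left out, edgeR called Slc2a3, G6pdx and Gpi1 lower, beside 3.34% of all genes, and 0 of the 31 higher, beside 0.780%. With the mitochondrial share as a covariate, 0 were called, and the log2 fold changes of these 4 genes moved from between -0.88 and -0.42 to between -0.35 and -0.29. In that fit 69 genes of the whole table were called in place of 276. The mitochondrial share itself went with genotype, at 1.39 ± 0.656% in Ifngr1_KO and 0.595 ± 0.272% in WT libraries (mean ± SD). The fit with this covariate therefore cannot cleanly separate the share from the genotype.

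Of the carriers, Slc2a3 (GLUT3, a high-affinity glucose carrier; chr6:122727809-122801640, minus strand, in mm10 here and below) was counted at 643, 887, 599, 461, 423, 653, 496 and 689 CPM in the WT libraries of mice 2 to 9, and at 505, 427, 462, 359, 298, 61.9, 351 and 356 CPM in the Ifngr1_KO libraries. Each Ifngr1_KO value was below its WT partner, the groups overlapped between 423 and 505 CPM, and mouse 7 was the far lowest. The means were 607 ± 149 and 353 ± 135 CPM, and the log2 fold change was -0.88 ± 0.31 (SE; 95% interval -1.56 to -0.20; edgeR adjusted p = 0.182). Without mouse 7 the difference was smaller and its test firmer, -0.58 with an adjusted p of 0.0148.

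Slc2a6 stood at 1663, 2906, 2913, 2777, 2371, 1914, 2046 and 1931 CPM in the WT libraries of mice 2 to 9 and at 1397, 1731, 2589, 2605, 1574, 1142, 1713 and 2164 CPM in the Ifngr1_KO libraries. The groups overlapped widely, and the Ifngr1_KO value was the lower one in 7 of 8 mice, mouse 9 being the exception. The fitted difference was -0.34 ± 0.12 on the log2 scale (adjusted p = 0.183), and without mouse 7 -0.28 (0.214). Slc2a1 (GLUT1, the carrier of most dividing cells) ran from 351 to 597 CPM in WT and from 155 to 461 CPM in Ifngr1_KO libraries, at -0.38 ± 0.18 (adjusted p = 0.325) and at -0.22 without mouse 7. The lactate exporter Slc16a3 (MCT4) ran from 1094 to 1627 and from 734 to 1907 CPM, with a log2 fold change of 0.05 (0.17 without mouse 7) and a 95% interval of -0.25 to 0.35. Its interval lies within 1.5-fold of no difference either way, as did those of 12 of the 31 genes (38.7%), beside 12.4% of all genes tested. These 2 shares come from genes of unlike level. A mean of at least 10 CPM was reached by 30 of the 31 genes but by only 4648 genes of the whole table.

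In upper glycolysis, Hk3 (chr13:55005985-55021385, minus strand; promoter above), which phosphorylates glucose, had 549, 615, 504, 442, 586, 557, 602 and 469 CPM in the WT libraries of mice 2 to 9 and 439.9, 277, 430.0, 407, 335, 117, 359.6 and 385 CPM in the Ifngr1_KO libraries. The highest Ifngr1_KO value, in mouse 2, lay just under the lowest WT value, in mouse 5. The means were 541 ± 63.3 and 344 ± 106 CPM, a log2 fold change of -0.72 ± 0.22 (95% interval -1.21 to -0.23; edgeR adjusted p = 0.126). Without mouse 7 it was -0.52, with an adjusted p of 0.0613.

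Gpi1 (glucose-6-phosphate isomerase, the next step; chr7:34201330-34230336, minus strand) had 1409, 1432, 1589, 1939, 1419, 1559, 1447 and 1251 CPM in WT and 1151, 957, 1321, 1715, 1022, 704, 1176 and 1154 CPM in Ifngr1_KO libraries, in the same order of mice. The groups overlapped, mouse 5 being the highest in both, and within each mouse the Ifngr1_KO value was lower. On the log2 scale the difference was -0.42 ± 0.12 (95% interval -0.68 to -0.15; adjusted p = 0.102), and without mouse 7 -0.32 (0.0327). Gpi1 had the smallest adjusted p of the genes on the lower side. A noncoding gene on the other strand, Gm26762, shares 741 exon bases with Gpi1 and was counted 578 times in all libraries, beside 328754 counts for Gpi1.

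Hk1 ran from 99.7 to 156 CPM in WT and from 72.4 to 107 CPM in 7 Ifngr1_KO libraries, with 7.21 CPM in mouse 7. The fitted log2 fold change of -0.84 ± 0.39 (adjusted p = 0.318) rested in part on that library and was -0.50 without it (0.0697). Hk2, the inducible form, went the other way in mouse 7, where its 85.4 CPM was far above the 17.5 to 38.5 CPM of the other Ifngr1_KO libraries and the 7.03 to 34.7 CPM of WT. Its log2 fold change was 0.70 ± 0.36 (adjusted p = 0.372) and 0.42 without mouse 7. Pfkl, which commits fructose-6-phosphate to glycolysis, was counted at 326 ± 95.8 CPM in WT and 297 ± 103 CPM in Ifngr1_KO libraries, at -0.20 ± 0.20, and without mouse 7 the difference was -0.0015. The platelet form Pfkp was at 68.2 ± 15.9 and 59.7 ± 24.0 CPM, at -0.28 ± 0.25 (-0.11 without mouse 7), and shares 748 exon bases with Pitrm1 on the other strand, counted 281 times beside 15926 for Pfkp.

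Aldoa, the aldolase that splits the sugar, had the highest level per length in this step and stood at 3037, 3189, 3043, 3546, 2851, 2898, 2713 and 2589.6 CPM in the WT libraries of mice 2 to 9 and at 3054, 3068, 3232, 3978, 2796, 2353, 3043 and 3624 CPM in the Ifngr1_KO libraries. The 2 groups lay over each other, and 5 of 8 mice were higher in Ifngr1_KO. This gave a log2 fold change of 0.07 with a 95% interval of -0.14 to 0.28, and of 0.12 without mouse 7. Tpi1, which interconverts the products of that split, was at 386 ± 96.5 and 340.5 ± 109 CPM, at -0.21 (95% interval -0.49 to 0.08; -0.11 without mouse 7).

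The PFKFB enzymes set the level of fructose-2,6-bisphosphate, the strongest activator of phosphofructokinase. Pfkfb4 stood at 309, 465, 409, 353, 330.4, 388, 338 and 383 CPM in the WT libraries of mice 2 to 9 and at 279.8, 314, 382, 506, 326, 101, 282 and 328 CPM in the Ifngr1_KO libraries. Apart from mouse 7, which was low, and mouse 5, which was high, the Ifngr1_KO values lay between 279.8 and 382 CPM. Its log2 fold change was -0.33 ± 0.22 (adjusted p = 0.505), and -0.11 without mouse 7. Pfkfb3 was at 23.3 ± 8.13 and 26.9 ± 7.90 CPM, at 0.20 ± 0.19 (0.08 without mouse 7).

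In lower glycolysis, Pkm, the pyruvate kinase, had the highest level per median transcript length and stood at 3877, 4450.4, 3619, 4710.1, 4015, 4138, 3779 and 3569 CPM in the WT libraries of mice 2 to 9 and at 3354, 3345, 3657, 4327, 3073, 1503, 3450.1 and 3631 CPM in the Ifngr1_KO libraries. Mouse 7 was again by far the lowest, and mice 4 and 9 were slightly higher in Ifngr1_KO. Pkm was at a log2 fold change of -0.33 ± 0.16 (adjusted p = 0.329), and -0.17 without mouse 7. Gapdh, the step that makes NADH, was at 4141 ± 567 and 4239 ± 677 CPM, with a log2 fold change of 0.03 and an interval of -0.14 to 0.20. Of the other 4 genes, the enolase Eno1 was at -0.13 (interval -0.38 to 0.11), the lactate dehydrogenase Ldha at -0.08 (-0.29 to 0.13), the mutase Pgam1 at 0.01 (-0.21 to 0.23) and the kinase Pgk1 at 0.07 (-0.15 to 0.30). Without mouse 7 they were at -0.07, -0.017, 0.032 and 0.10. Each of these 4 intervals and that of Gapdh lay within 1.5-fold of no difference. In mouse 7 Gapdh, Pgam1 and Pgk1 kept close to their partners as well, with log2 differences of 0.07, -0.15 and -0.07, where Hk1 had -4.09, Slc2a3 -3.39 and G6pdx -2.60. The principal transcripts of Gapdh, Pgam1 and Pgk1 are 1420, 1775 and 1825 bases long. Those of Hk1, Slc2a3 and G6pdx have 3851, 3959 and 2652 bases, so that pathway step and transcript length cannot be told apart in this contrast.

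Some of these genes have near-identical copies between which reads can be split. Gapdh had 78 annotated copies that match it over at least 200 bases at 95% identity or more, and they held 10.2% of the summed counts, 8.86% in WT and 11.6% in Ifngr1_KO libraries. For Pgam1, 1 copy held 12.9%, and for Pgk1, 3 copies held 14.1%. With the copies added to the gene, the log2 fold change of Gapdh went from 0.03 to 0.09, that of Pgk1 from 0.07 to 0.0072 and that of Pgam1 from 0.01 to -0.03. For Eno1, Gpi1, Ldha, Pkm and Tpi1 the copies held at most 0.183% of the sum.

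Hif1a had values in separate ranges. The WT libraries of mice 2 to 9 were at 98.2, 37.0, 11.9, 26.4, 34.8, 38.7, 124 and 20.6 CPM and the Ifngr1_KO libraries at 145, 154, 102, 10.5, 186, 18.3, 116 and 8.26 CPM. In the Ifngr1_KO group mice 5, 7 and 9 were below 20 CPM and the other 5 above 100 CPM, and 4 of 8 mice were higher in Ifngr1_KO. The log2 fold change was 0.51 ± 0.58 (95% interval -0.77 to 1.80; adjusted p = 0.702), and 0.79 without mouse 7, so that neither a rise nor a drop by a factor of 1.5 was outside the interval.

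In the pentose phosphate pathway, G6pdx (chrX:74409483-74429194, minus strand; promoter above), which makes the first NADPH, had 845, 790.2, 979, 1033, 897, 1045, 862 and 851 CPM in the WT libraries of mice 2 to 9 and 727, 478, 772, 785, 552, 172, 586 and 665 CPM in the Ifngr1_KO libraries. The groups did not overlap, by a margin of a few CPM between mouse 5 in Ifngr1_KO and mouse 3 in WT. The means were 913 ± 94.4 and 592 ± 202 CPM, the log2 fold change -0.71 ± 0.24 (95% interval -1.23 to -0.19; edgeR adjusted p = 0.160). Without mouse 7 it was -0.47 with an adjusted p of 0.00811. Ikbkg on the other strand shares 418 exon bases with G6pdx, was counted 17896 times beside 187617 for G6pdx and had a log2 fold change of -0.41 ± 0.28, and the libraries do not mark strand.

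Pgd, which makes the second NADPH (chr4:149149991-149166771, minus strand), ran from 1183 to 1461 CPM around 1339.6 in WT and from 758 to 1351 CPM around 1032 in Ifngr1_KO libraries. It was lower in 8 of 8 mice although the groups overlapped, mouse 9 having the highest value of both. Pgd was at a log2 fold change of -0.32 ± 0.11 (95% interval -0.55 to -0.09; adjusted p = 0.152), and -0.24 without mouse 7 (0.0947).

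Pgls, the lactonase between G6pdx and Pgd (chr8:71592176-71601092, plus strand), went the other way at a level of a few CPM. Its WT libraries held 6.31, 0.965, 1.33, 0.105, 1.72, 2.14, 4.22 and 0.188 CPM and its Ifngr1_KO libraries 6.87, 13.98, 3.67, 1.12, 29.5, 14.8, 6.60 and 1.24 CPM. Every mouse was higher in Ifngr1_KO, by little in mouse 2, and the groups overlapped. The log2 fold change of 2.34 ± 0.55 (95% interval 1.13 to 3.55) had an adjusted p of 0.0518 by edgeR, and over the alternatives other than leaving out mice it ranged from 1.33e-04 (DESeq2) to 0.773 (mitochondrial share as a covariate). Pgls was counted 1494 times in all libraries, and 776 of its exon bases are shared on the same strand with Fam129c, counted 606 times and at a log2 fold change of -0.99 ± 0.72.

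Taldo1, the transaldolase that rearranges the sugars, had the highest level per length of the pathway and stood at 2007, 2118, 2032, 2326, 2421, 2347, 2141 and 2369 CPM in the WT libraries of mice 2 to 9 and at 1923, 1944, 1969.7, 2279, 1929.9, 2638, 2053 and 2354 CPM in the Ifngr1_KO libraries. The pairs lay close, and mouse 7, low for so many genes, was the highest here. The log2 fold change was -0.06 (95% interval -0.24 to 0.12; -0.09 without mouse 7), and that of the transketolase Tkt -0.15 (-0.41 to 0.11; -0.06 without mouse 7). Rpe, an epimerase, was near 10 CPM in both groups (13.1 ± 6.19 and 9.12 ± 6.48 CPM), shares 558 exon bases with Kansl1l on the other strand and was at -0.66 ± 0.42 (-0.41 without mouse 7). Rpia was at 0.431 ± 0.297 and 0.356 ± 0.275 CPM, too low to be compared.

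**Figure D3:**
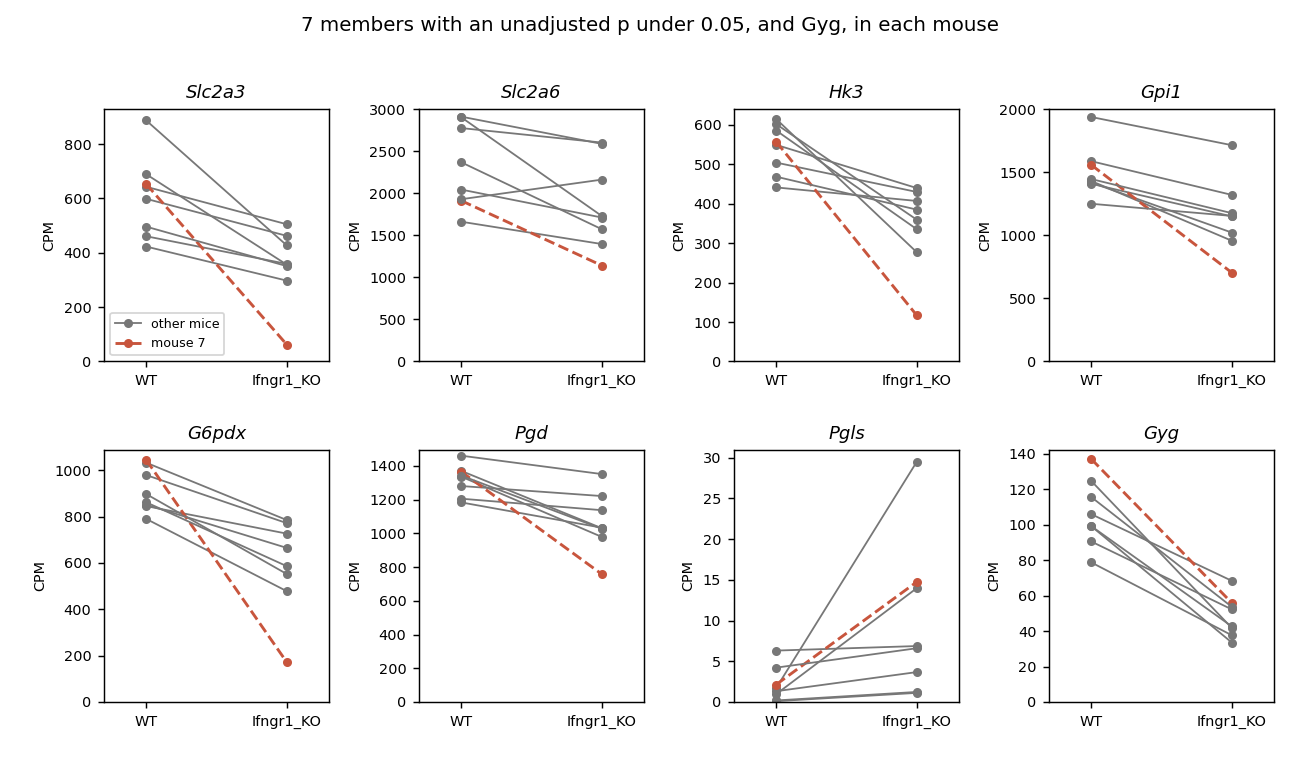
TMM-scaled CPM of Slc2a3, Slc2a6, Hk3, Gpi1, G6pdx, Pgd, Pgls and Gyg in the WT and Ifngr1_KO library of each of 8 mice, joined by a line, with mouse 7 as the dashed red line. All lines of Slc2a3, Hk3, Gpi1, G6pdx, Pgd and Gyg slope down and all lines of Pgls slope up. The line of mouse 7 is the steepest for Slc2a3, Hk3, Gpi1, G6pdx and Pgd, and for Gyg it is about as steep as that of mouse 4.

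Of the glycogen genes, Pygl, the phosphorylase that releases glucose units, stood at 1039, 858, 1074, 951, 863, 1046, 1161 and 1091 CPM in the WT libraries of mice 2 to 9 and at 1134, 701, 938, 847, 732, 169, 823 and 806 CPM in the Ifngr1_KO libraries. In 7 of 8 mice Ifngr1_KO was lower, and mouse 7 held the extreme value. The log2 fold change was -0.50 ± 0.26 (95% interval -1.08 to 0.07; adjusted p = 0.369), -0.24 without mouse 7 (0.151) and 0.02 after adding the mitochondrial share. The glycogen synthase Gys1 was at 42.0 ± 8.04 and 35.8 ± 12.1 CPM (-0.29 ± 0.23), and Ugp2, which makes UDP-glucose, at 58.1 ± 8.71 and 67.4 ± 13.5 CPM (0.20 ± 0.14). Gys1 shares 310 exon bases with Ruvbl2 on the other strand, which had nearly as many counts (9348 beside 9648). The branching enzyme Gbe1 had 15.7, 3.86, 4.81, 5.07, 7.12, 7.82, 13.7 and 2.70 CPM in WT and 36.3, 26.8, 11.8, 5.37, 28.8, 32.4, 27.0 and 0.309 CPM in Ifngr1_KO libraries, in the order of mice 2 to 9. It was higher in Ifngr1_KO in 7 of 8 mice and lower in mouse 9, at 1.12 ± 0.53 (95% interval -0.04 to 2.29; adjusted p = 0.323 by edgeR and 0.0195 by limma-voom).

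**Figure D4:**
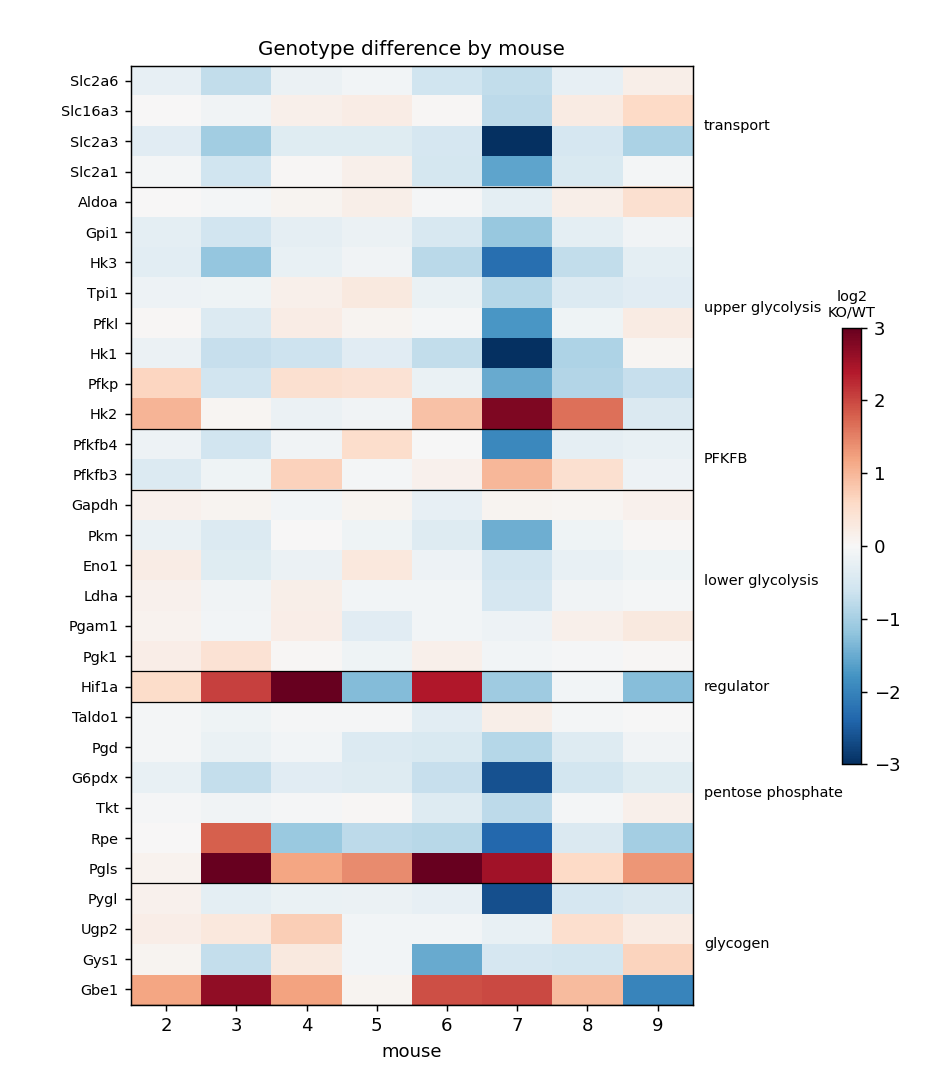
Log2 ratio of Ifngr1_KO to WT CPM (0.5 CPM added to each) of the 31 analysed genes in each mouse, with colours capped at 3 either way. The column of mouse 7 is the darkest, with 13 genes (41.9%) more than 2-fold lower, beside 27.8% of all genes tested. In that column 3 genes are more than 2-fold higher, beside 26.4% of all genes. The rows of lower glycolysis are pale in the other 7 mice.

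Around these genes, 10 further lists of the same pathways held 128 genes, of which 78 were tested. Of the 78, 1 passed as lower in Ifngr1_KO cells and 0 as higher, with a median log2 fold change of -0.01. The called gene was Gyg, glycogenin, the protein that primes a new glycogen particle (chr3:20122084-20155317, minus strand; promoter above). Its WT libraries held 106, 78.7, 125, 90.5, 99.2, 137, 116 and 99.2 CPM and its Ifngr1_KO libraries 68.3, 37.6, 41.7, 52.2, 33.5, 55.9, 53.7 and 42.6 CPM. All Ifngr1_KO values lay below all WT values, and the Ifngr1_KO value of mouse 7 was inside the range of the other Ifngr1_KO libraries. Gyg fell by 1.16 ± 0.14 on the log2 scale (95% interval -1.46 to -0.85; edgeR adjusted p = 6.65e-04) from 106 ± 18.8 to 48.2 ± 11.4 CPM. Without mouse 7 the log2 fold change was -1.14 (adjusted p = 0.00136). Once the mitochondrial share entered the fit as a covariate it was also -1.14 but no longer passed (0.0730).

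In the other 9 lists 0 genes were called with all mice. The list on pyruvate entry into mitochondria (11 tested, median -0.21) held carriers and enzymes together with kinases that inhibit pyruvate dehydrogenase. It included the carrier subunit Mpc1 at -0.21 ± 0.14 and the dehydrogenase kinase Pdk3 at -0.83 ± 0.35 (edgeR adjusted p = 0.268). Among 9 further glycolytic and accessory enzymes, the mitochondrial glycerol-3-phosphate dehydrogenase Gpd2 was at -1.08 ± 0.32 (adjusted p = 0.119), with 65.0 ± 17.3 CPM in WT and 40.1 ± 37.7 CPM in Ifngr1_KO libraries. The 12 hypoxia targets outside glycolysis had a median of 0.20, with Bhlhe40 at -0.14 ± 0.17 and Bnip3l at 0.23 ± 0.12. Of 6 regulators of HIF, Arnt, the partner of Hif1a, was at -0.63 ± 0.46 and the hydroxylase Egln2 at 0.12 ± 0.15. Egln3, also a HIF hydroxylase, was at 0.67 ± 0.21 with all mice (adjusted p = 0.139) and passed as higher without mouse 7. Txnip, which restrains glucose uptake, was at -0.16 ± 0.14, and the lactate carrier partner Bsg, which brings Slc16a3 to the membrane, at 0.16 ± 0.16. In the remaining lists, Slc16a6 was at 0.23, Galm at -0.15, H6pd at -0.16, Rbks at -0.13, Pck2 at 0.02, Slc37a4 at 0.54, Ugdh at -0.52 and Akt2 at 0.01, with adjusted p-values of 0.344 or more.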

How the data were processed

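Per the labels' protocols, 1 ng of RNA from sorted liver neutrophils went into each library, by oligo-dT priming (SMART-Seq v4), 13 PCR cycles and Nextera XT. Such libraries mark neither strand nor single molecules. The authors deposited whole-number estimated counts per Ensembl gene, with no scaling applied. Salmon 0.14.2, DESeq2 1.22.1 and build mm10 are named, per the submitters' processing notes. Which transcript annotation and filters were applied is not given in the sources used here. Whole numbers from Salmon were taken to be rounded estimates.

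Names, lengths and positions were taken from GENCODE annotation of mm10, and 37 identifiers had no name. In R 4.3.3, edgeR 4.0.16 was run on all 16 libraries (filterByExpr with the group labels, TMM scaling, robust glmQLFit and glmQLFTest with mouse as a block). Benjamini-Hochberg adjustment covered the 9851 genes tested, and adjusted p-values under 0.05 were called. The SE was derived from the fold change and its F statistic, and values per mouse had 0.5 CPM added. The fit was tested on simulated counts. Alternatives were no block, other scalings and filters, DESeq2 1.42.0, limma-voom (3.58.1) with library weights, the mitochondrial share as a covariate, copies added to their gene, and each mouse left out; the principal transcript length and the pathway lists without mouse 7 were added after seeing the data.

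Replicate numbers pair the samples because the design text says that each number is 1 mouse. The correlation of deviations from the group means was 0.160 on average within mice (0.0320 to 0.383) and -0.0211 between them, with 4 of 8 WT libraries closest to their own partner. Values in every library are given for the gene of each step with the highest level per length, for called genes and for those that turned on a setting; of the other pathway lists, each called gene or the 2 with the highest CPM are named, and Egln3 was named after its values were seen; 1 gene that this rule names is not reported here. The members and all lists were chosen with earlier results of these data known.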

Additional observations from a re-analysis of the deposited data

Results flagged for a closer look

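In groups of 8 libraries, a value was marked when its gap to the nearest other library, as a share of the whole range of the group, exceeded Dixon's 95% critical value for that number. Of 70 groups checked, 12 were marked, where chance marks about 1 in 20. The Ifngr1_KO library of mouse 7 was the lowest of its group for Slc2a3 (gap share 0.532), Hk1 (0.656), Pkm (0.556) and Pygl (0.551), and the highest for Hk2 (0.690). The WT library of mouse 3 was the highest for the glycolytic enzymes Tpi1 (0.583), Pfkl (0.720) and Eno1 (0.620). Mouse 5 was the highest for Gapdh in both its WT (0.575) and its Ifngr1_KO library (0.570). The Ifngr1_KO library of mouse 2 was the lowest for Pfkfb3 (0.548). The mitochondrial share was the highest of the WT group in mouse 4 (0.591). Without mouse 7 the log2 fold changes were -0.58 for Slc2a3, -0.50 for Hk1, -0.17 for Pkm, -0.24 for Pygl and 0.42 for Hk2, each nearer to 0 than with all mice.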

How the results depend on the processing

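In place of the 276 genes called in the whole table, DESeq2 called 1060, limma-voom 597 and the fit with the mitochondrial share 69, and leaving out each mouse in turn gave 163 to 412. Of the 31 genes, DESeq2 and limma-voom called 5 each, library totals 1 (Pgls), and leaving out a mouse 0 to 3 (3 without mouse 7, and Pgls alone without mouse 2). Without the mouse block, that is without the pairing, 268 genes of the table and 0 of the 31 were called. Higher and lower calls split 47 to 229 with TMM, 102 to 164 with library totals and 126 to 244 among genes with a mean of at least 10 CPM. Without mouse 7 the other pathway lists gave 1 higher call (Egln3). Signs turned as follows: with the mitochondrial share those of Tpi1 (0.018), Pfkl (0.13), Pfkp (0.44), Gapdh (-0.0010), Ldha (0.11) and Pygl (0.018); with library totals Ldha (0.034) and Taldo1 (0.050); among genes of at least 10 CPM Ldha (0.0074) and Taldo1 (0.024); for Pgam1 without the block (-2.4e-04), with no filter (-0.017), with copies added (-0.033) and over mice left out (-0.030 to 0.059); and for Slc16a3 over mice left out (-0.029 to 0.17). The cause of these shifts was not tested. Shares by union and principal length in place of the median length were 89.0% and 82.1% for Hk3, 90.1% and 83.7% for Pfkl, 77.0% and 78.5% for Slc2a6 and 96.1% and 95.5% for Pfkfb4. Genes of a few CPM, such as Pgls and Gbe1, rest on few counts and PCR copies.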
